A study of Mus musculus with 20 samples.

Results

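The circadian clock genes described here are the activators Arntl (BMAL1), Clock and Npas2, the periods Per1, Per2 and Per3, and the cryptochromes Cry1 and Cry2. They were taken by gene name from the array annotation, with every probe kept. All 8 genes were present, with 14 probes of 41174 different probes on the array: 4 probes for Clock, 2 each for Cry1, Cry2 and Per2, and 1 each for the rest. Total RNA was measured on 20 Agilent mouse arrays with 1 colour (Cy3), with 5 arrays for each of 4 groups: liver and white adipose tissue (WAT) from wild-type (WT) mice and from mice of the genotype RORasg/sg. The latter carry on both copies the staggerer allele (sg), a natural deletion in Rora, in every cell of the animal. All mice were males of strain C57BL/6, were 5 months old and had been on a high-fat diet (35% fat) over 6 weeks, so no group was on a standard diet. The labels used here give neither the time of day of collection nor the fat depot, and they do not say whether a liver array and a WAT array that share a number also share a mouse.

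BMAL1 pairs with CLOCK, or with its paralogue NPAS2, and the pair binds E-boxes in the Per and Cry promoters. The PER and CRY proteins then enter the nucleus and repress that pair, which closes a loop of about a day that runs in liver and fat as in the brain. A further loop acts on Arntl itself: the nuclear receptors ROR (activating) and REV-ERB (repressing) compete for the same response elements in its promoter, and Clock, Npas2 and Cry1 are also known targets. Because transcripts of this loop swing over the day, a level at a single collection point depends on the phase of the animals as well as on the mean level.

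Sequences are shown for the promoter that carries the best known ROR elements and for the members on which the results turn. The windows run from 250 bases before to 50 bases after a RefSeq start site (build GRCm38.p6), and 7 of the 8 genes had one. Capitals mark matches on either strand to TNGGTNA, to the E-box variant CACGTT and to the D-box TTANNTAA. TNGGTNA, which includes the stricter TNGGTCA, is a loose pattern for the ROR element half-site. It takes any base at N, so a match need not be such a half-site. Position 1 is the first base of the transcript, and a match is placed by its leftmost base.
Arntl, chr7:113207261-113207560, plus strand: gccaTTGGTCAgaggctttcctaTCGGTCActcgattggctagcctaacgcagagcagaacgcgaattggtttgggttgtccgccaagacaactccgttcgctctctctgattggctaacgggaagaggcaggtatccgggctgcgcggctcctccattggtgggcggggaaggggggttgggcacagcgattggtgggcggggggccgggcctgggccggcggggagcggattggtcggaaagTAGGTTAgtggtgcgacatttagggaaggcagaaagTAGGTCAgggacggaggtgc
Cry2, chr2:92434020-92434319, minus strand: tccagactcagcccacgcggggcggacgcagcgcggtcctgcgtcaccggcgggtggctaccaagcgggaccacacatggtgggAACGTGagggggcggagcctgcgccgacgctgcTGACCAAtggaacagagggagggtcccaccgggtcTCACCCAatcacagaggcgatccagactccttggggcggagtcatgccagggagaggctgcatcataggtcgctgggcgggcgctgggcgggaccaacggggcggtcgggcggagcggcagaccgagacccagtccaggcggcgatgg
Per3, chr4:151044616-151044915, minus strand: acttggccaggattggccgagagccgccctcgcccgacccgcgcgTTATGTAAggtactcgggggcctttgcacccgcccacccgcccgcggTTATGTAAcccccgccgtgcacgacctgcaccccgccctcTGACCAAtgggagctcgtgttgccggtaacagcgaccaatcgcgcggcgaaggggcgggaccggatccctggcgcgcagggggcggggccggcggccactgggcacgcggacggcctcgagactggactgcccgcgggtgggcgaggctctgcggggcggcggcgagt
The Arntl window held TAGGTTA at -6 and TAGGTCA at 31, and further matches to the loose pattern at -246 (TTGGTCA) and -227 (TCGGTCA). The Cry2 window held a match to TNGGTCA on the opposite strand at -133 (printed TGACCAA). It also held a match to TNGGTNA alone at -98 (printed TCACCCA) and an E-box variant at -166. In the Per3 window, D-boxes, which DBP, TEF and HLF bind, stood at -205 and -158. A match to TNGGTCA stood on the opposite strand at -118 (printed TGACCAA). Of all 32851 windows, 32.53% held TNGGTNA, 10.96% TNGGTCA, 4.685% CACGTT, 7.15% the full E-box CACGTG and 6.003% the D-box. The full E-box stood at -60 in the Cry1 window and at -166 in 1 of the Per1 windows. None of these motifs was found in the windows of Clock and Npas2, and a match is a string of letters, not a bound site.

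Probe sequences show which piece of a transcript each value reads. These 2 probes, printed in lower case with nothing marked, come from Cry2 and Per2, whose probes decide most of what follows. Coordinates are the array files' own (build mm7), and what mm7 annotates there was not used here.
Cry2 probe A_51_P135542, chr2:92264642-92266907, minus strand: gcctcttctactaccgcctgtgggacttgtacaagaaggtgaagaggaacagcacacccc
Per2 probe A_52_P536869, chr1:91347406-91347465, minus strand: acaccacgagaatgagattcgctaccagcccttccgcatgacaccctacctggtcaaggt
The Cry2 probe has 60 bases but spans 2266 in the genome, so it crosses an intron. The second Cry2 probe, A_52_P248378, lies 9.72 kb from it and the second Per2 probe, A_51_P282760, 23.5 kb from the one printed. The 4 Clock probes spread over 42.0 kb, and one of them, A_52_P279391, was designed on a cDNA and not on the reference transcript. Levels are given as log2 of the intensity relative to the 75th percentile of the same array, so 0 is that percentile, and they were compared for the same probe only.

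The mutated gene was checked first. All 3 Rora probes (chr9, 69410920 to 69417473) were lower on every sg/sg array than on any WT array, and the brightest differed by -2.88 in liver and by -2.72 in WAT on the log2 scale. Liver arrays had 56.5% to 62.4% of probes well above background, and WAT arrays 71.9% to 81.1%. Hepatocyte and adipocyte markers were well above background in their own tissue on all arrays. Adipoq, Plin1 and Lep were not on any WT liver array, nor Plin1 and Lep on any sg/sg liver array. However, 3 of the 6 adipocyte markers were well above background on all liver arrays of each genotype. Of the 5 hepatocyte markers on the array, 3 were so on all WAT arrays of each genotype. The macrophage list was lower in sg/sg WAT in 5 of 6 genes, with a summed level of 30.1 to 50.4 against 68.7 to 143 in WT, in units of the 75th percentile, and 3 of 4 mesothelial markers were higher. In liver 3 of 6 macrophage markers were higher in sg/sg mice. These are counts of genes that passed limma's test at an adjusted p under 0.05. Over all probes tested, 9.14% passed as lower and 12.8% as higher in WAT, and 8.1% as higher in liver. The part of these cell types in the clock gene values was not tested, and in whole tissue fewer cells of a type and less RNA per cell cannot be told apart. Liver arrays lay on 3 slides: WT replicates 1 to 4 on slide 1, WT replicate 5 with sg/sg replicates 1 to 3 on slide 2, and sg/sg replicates 4 and 5 on slide 3. Each of the 3 WAT slides held both genotypes.

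**Figure D1:**
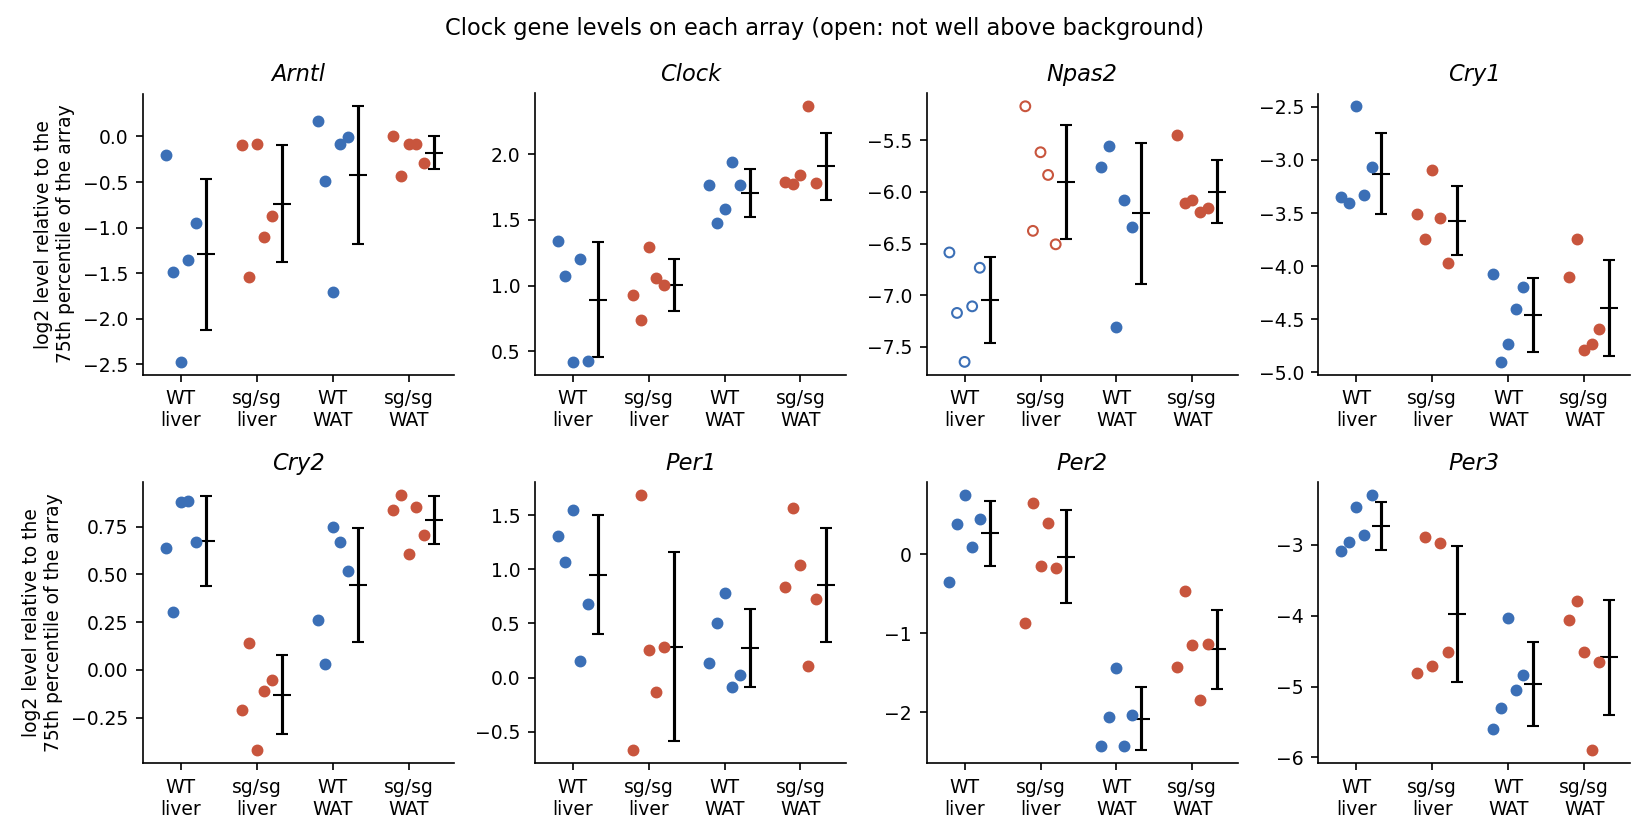
Level of the brightest probe of each clock gene on every array, as log2 relative to the 75th percentile of the array (vertical axis, scaled per gene), by group. Points are arrays, bars are the mean and SD of 5, and open points were not well above background, as for Npas2 in liver. Cry2 in sg/sg liver (-0.42 to 0.14) sits below all WT liver arrays (0.31 to 0.88).

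In liver the mutation of Rora went with lower Cry2 and with a higher signal of 1 Clock probe. Cry2 was 1.75-fold lower by its brighter probe and 1.33-fold lower by the other, and Clock was 1.48-fold higher by A_52_P334677. The remaining 10 tested probes, those of Arntl, Cry1 and the 3 periods among them, did not pass. In all 3 of 13 tested probes (23.1%) passed limma's test at an adjusted p under 0.05, 1 higher and 2 lower. Over all 24675 probes tested in liver 14.6% passed, 8.1% higher (1999) and 6.49% lower (1602), a split that turned to 865 higher and 2291 lower with median scaling. The median change of the 13 probes was -0.29 on the log2 scale, against 0.04 for all probes.

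Arntl, the partner that all clock activators share, was the most variable activator in liver. Its levels were -0.20, -1.49, -2.47, -1.35 and -0.95 on the WT arrays, replicates 1 to 5, and -0.10, -1.54, -0.08, -1.10 and -0.87 on the sg/sg arrays. The groups overlapped almost fully, and the lowest of the 10 values was a WT one. The difference of 0.56 (SE 0.41, 95% confidence interval -0.35 to 1.46, limma adjusted p 0.374) did not pass. Its interval reaches down to a fall of 0.35, but slide was not in this fit, so the interval does not cover differences between slides. Clock gave levels of -1.72, -2.02, -2.35, -1.91 and -1.94 by A_52_P334677 on WT arrays. On sg/sg arrays they were -1.44, -1.81, -1.11, -1.40 and -1.36, higher by 0.56 (SE 0.15, limma adjusted p 0.0301). Only sg/sg replicate 2 reached down into the WT range. The other 3 Clock probes differed by 0.11, 0.20 and 0.41, all upward and none past the threshold (limma adjusted p 0.283 to 0.726), A_52_P334670 among them, which lies close to A_52_P334677 near the same end of the gene. The call for A_52_P334677 was lost without any 1 of WT replicates 2, 3 and 4 or sg/sg replicates 1, 3, 4 and 5 (0.47 to 0.58, limma adjusted p 0.0505 to 0.0634), and with median scaling of the arrays (0.46, adjusted p 0.0641). Npas2 was not well above background on any of the 10 liver arrays, so its liver values are bounds and were not tested.

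The periods, the repressors whose transcripts swing most over the day, differed widely between arrays of the same genotype in liver. Per3 had levels of -3.09, -2.97, -2.47, -2.86 and -2.30 on the WT arrays and -4.81, -2.89, -4.70, -2.98 and -4.51 on the sg/sg arrays. Of the sg/sg arrays, 3 lay far below every WT array and replicates 2 and 4 lay inside the WT range. The mean difference of -1.24 (SE 0.40, 95% confidence interval -2.12 to -0.36) missed the threshold with a limma adjusted p of 0.0602. It passed without sg/sg replicate 2 (-1.51, limma adjusted p 0.0319) or replicate 4 (-1.49, adjusted p 0.0386), those inside the WT range, and with median scaling (-1.35, adjusted p 0.0465). Per1 showed 1.31, 1.07, 1.55, 0.15 and 0.68 on WT arrays and -0.67, 1.69, 0.26, -0.13 and 0.29 in sg/sg liver. The highest of these values was sg/sg replicate 2, the same array that was high for Per3, and the difference of -0.67 (SE 0.41, limma adjusted p 0.281) did not pass.

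For Per2 the 2 probes pointed in opposite directions in liver. A_51_P282760 gave -0.35, 0.38, 0.75, 0.09 and 0.44 on WT arrays and -0.87, 0.65, -0.15, 0.40 and -0.17 on sg/sg arrays, a difference of -0.29 (SE 0.29, limma adjusted p 0.508). A_52_P536869 gave -3.50, -2.99, -2.70, -2.92 and -2.51 on WT arrays and -2.78, -2.38, -2.17, -2.50 and -2.35 on sg/sg arrays, a difference of 0.49 (SE 0.18, limma adjusted p 0.0902). Neither passed, and the groups overlapped for both. The second passed without WT replicate 5 (0.59, limma adjusted p 0.0448) and with the normexp background correction (0.41, adjusted p 0.0366), so no direction for Per2 in liver is given here.

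Cry2, a repressor of the CLOCK and BMAL1 pair, gave the clearest difference among the clock genes in liver. Its brighter probe, A_52_P248378, stood at 0.64, 0.31, 0.88, 0.88 and 0.67 on WT arrays and at -0.21, 0.14, -0.42, -0.11 and -0.05 on sg/sg arrays. Every sg/sg array was below every WT array, which held for this probe alone among the 13 and for 12.2% of all probes tested. The difference was -0.81 (SE 0.14, 95% confidence interval -1.11 to -0.51, limma adjusted p 0.00898), and it passed with each of the 10 arrays left out in turn (-0.90 to -0.73). The printed probe A_51_P135542 stood at -4.04, -4.39, -3.79, -4.02 and -4.01 in WT and at -4.42, -4.44, -4.63, -4.39 and -4.42 in sg/sg mice. The sg/sg arrays were tightly grouped, and WT replicate 2 just reached them. That difference of -0.41 (SE 0.11, limma adjusted p 0.0341) was lost without any 1 of WT replicates 1, 3, 4 and 5 or sg/sg replicates 1, 2, 3 and 5 (-0.42 to -0.34, adjusted p 0.0510 to 0.0795), and it was -0.04 with the normexp background correction (adjusted p 0.801). Cry1, the other cryptochrome, was lower by 0.44 and 0.47 on average by its 2 probes, with limma adjusted p of 0.158 and 0.256, and did not pass.

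Slide and genotype were nearly the same split in liver, and the only within-slide comparison is 1 WT array against 3 sg/sg arrays on slide 2. There the brighter Cry2 probe differed by -0.83 and the printed one by -0.49, Clock A_52_P334677 by 0.48 and Per3 by -1.84, in the direction seen over all arrays. None passed limma's test on that slide, where 0 probes of the whole array passed and 1962 had an unadjusted p under 0.05. With slide as a fixed block the genotype estimate comes from slide 2 alone, so the differences for Cry2 and Clock were the same by design and are no second check. In that fit 3 probes of the whole array passed and 2004 had an unadjusted p under 0.05. With slide as a random block all 3 calls among the clock genes stood.

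**Figure D2:**
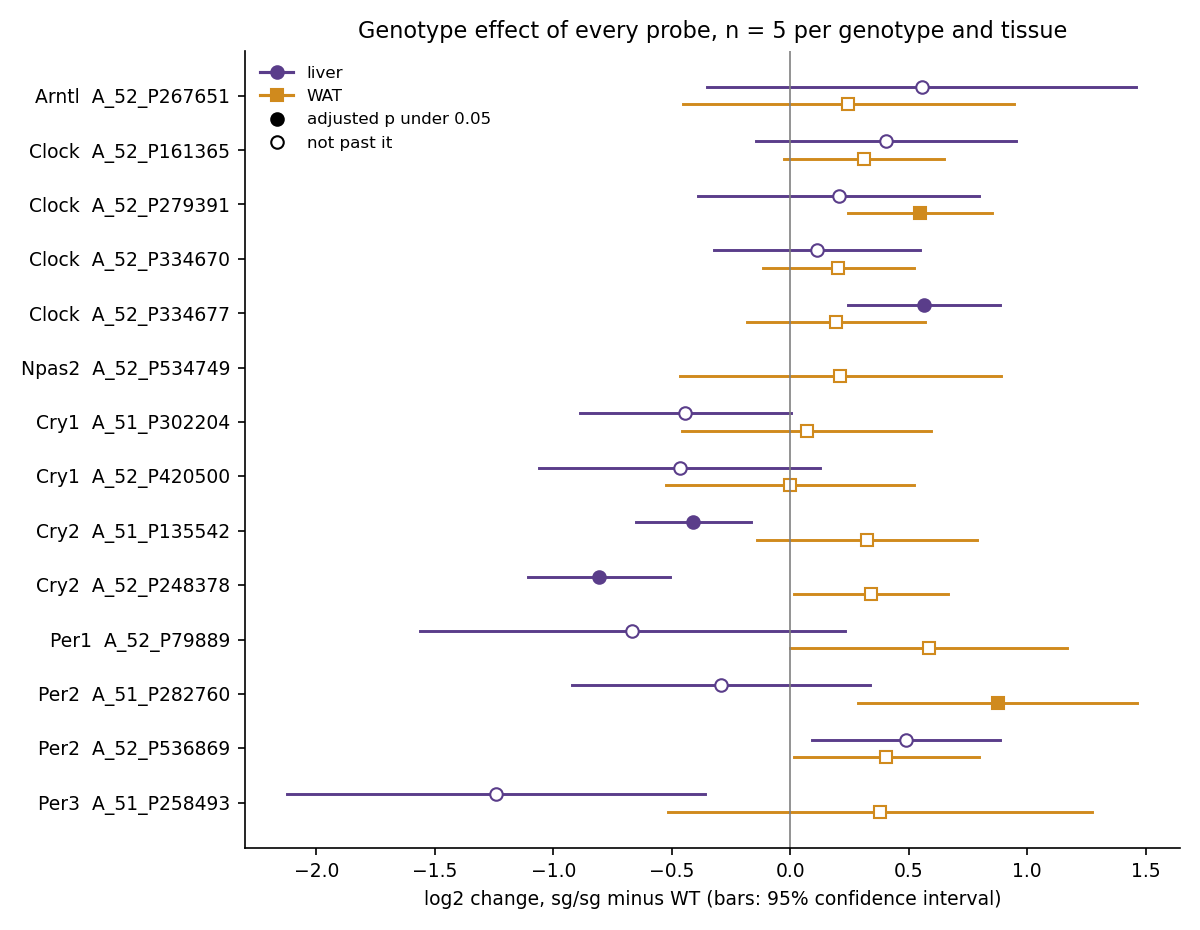
Difference between sg/sg and WT mice for all 14 probes (horizontal axis, log2), in liver (circles) and WAT (squares), with 95% confidence intervals from limma. Filled symbols passed at an adjusted p under 0.05. In WAT 13 of 14 estimates lie above 0, and in liver 6 of 13 do. In liver both Cry2 probes and the Per3 probe have intervals wholly below 0. Those of Clock A_52_P334677 and Per2 A_52_P536869 lie wholly above 0. Per3 and this Per2 probe did not pass after adjustment.

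In WAT no clock gene passed as lower in sg/sg mice, and 2 of 14 probes (14.3%) passed as higher, 1 for Per2 and 1 for Clock. Per2 was 1.84-fold higher by A_51_P282760 and Clock 1.46-fold higher by A_52_P279391. Arntl, Npas2, Per1, Per3 and both cryptochromes did not pass. Over all 32315 probes tested in WAT 21.9% passed, 12.8% as higher and 9.14% as lower, so the share among the clock genes was no larger than that of the array. The median change was 0.32 on the log2 scale with 13 of 14 estimates above 0, against a median of 0.08 for all probes. The normexp background correction moved that median of all probes to 0.49.

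Among the activators in WAT, Arntl levels were 0.17, -0.49, -1.70, -0.09 and -0.01 on WT arrays and 0.00, -0.44, -0.08, -0.08 and -0.29 on sg/sg arrays. WT replicate 3 stood alone at the bottom and all other arrays overlapped. The difference of 0.25 (SE 0.31, limma adjusted p 0.626) rested on that array, since it was -0.07 without it. Npas2 was well above background on all WAT arrays, at -5.75, -5.56, -7.31, -6.08 and -6.34 on WT arrays and -5.45, -6.10, -6.08, -6.20 and -6.16 on sg/sg arrays. WT replicate 3 was again the lowest array, and the difference of 0.21 (limma adjusted p 0.670) became -0.06 without it. Clock A_52_P279391 stood at -4.92, -5.05, -5.06, -4.79 and -4.89 in WT and at -4.26, -4.62, -4.27, -4.09 and -4.75 in sg/sg mice. All sg/sg arrays lay above all WT arrays, as for 20.8% of the probes tested in WAT. The difference was 0.55 (SE 0.14, 95% confidence interval 0.24 to 0.85, limma adjusted p 0.0185) and passed with each of the 10 arrays left out in turn. It did not pass with quantile normalization (0.53, adjusted p 0.0589), in a fit to all 20 arrays (0.55, adjusted p 0.0837) or with normexp (1.19, adjusted p 0.227). The other 3 Clock probes differed by 0.19 to 0.31 and did not pass.

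The period genes in WAT all had higher mean values in sg/sg mice, and 1 of the 4 probes passed. Per2 A_51_P282760 stood at -2.43, -2.06, -1.45, -2.43 and -2.03 in WT and at -1.43, -0.46, -1.15, -1.84 and -1.14 in sg/sg mice. Only WT replicate 3 and sg/sg replicate 4 bridged the groups. The difference was 0.88 (SE 0.27, 95% confidence interval 0.29 to 1.47, limma adjusted p 0.0394). It was 0.79, 0.81 and 0.89 within slides 4, 6 and 5, and 0.82 with slide as a fixed block (adjusted p 0.0825). Within a slide 0 probes of the whole array passed limma's test, and 4310 to 5078 had an unadjusted p under 0.05. The call was lost without any 1 of WT replicates 1, 2, 4 and 5 or sg/sg replicates 1, 2, 3 and 5 (0.69 to 0.93, limma adjusted p 0.0550 to 0.0911). The printed Per2 probe stood at -4.86, -4.30, -4.73, -4.44 and -5.25 in WT and at -4.14, -4.19, -4.55, -4.39 and -4.29 in sg/sg mice, a difference of 0.41 (SE 0.18, limma adjusted p 0.128), which passed with slide as a fixed block (0.52, adjusted p 0.0276). So the Per2 probes pointed the same way in WAT, unlike in liver.

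Per1 in WAT stood at 0.14, 0.51, 0.79, -0.09 and 0.02 in WT and at 0.84, 1.57, 1.04, 0.11 and 0.73 in sg/sg mice. The sg/sg array within the low WT values was replicate 4, which also had the lowest 75th percentile of the WAT arrays (1352 against 1653 to 2598). The Per1 difference of 0.58 (SE 0.26, limma adjusted p 0.142) passed without that array (0.77, adjusted p 0.0306), as did the printed Cry2 probe (0.49, adjusted p 0.0471), which raised the count from 2 to 4. Per3 stood at -5.59, -5.31, -4.03, -5.05 and -4.83 in WT and at -4.07, -3.80, -4.51, -5.90 and -4.65 in sg/sg mice, with the lowest value again on sg/sg replicate 4, and its difference of 0.38 (SE 0.40, limma adjusted p 0.549) did not pass. Cry2 A_52_P248378 stood at 0.26, 0.03, 0.75, 0.67 and 0.52 in WT and at 0.84, 0.92, 0.61, 0.86 and 0.71 in sg/sg mice. The groups overlapped through WT replicates 3 and 4, and the difference of 0.34 (SE 0.15, limma adjusted p 0.125) did not pass. For Cry1 the differences were 0.07 and -0.00158, with 95% confidence intervals of -0.46 to 0.60 and -0.53 to 0.52.

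The genotype effect differed between the tissues for both probes of Cry2 and for 1 of the 2 probes of Per2. Tested as an interaction in limma over the 20 arrays, 3 of 13 probes (23.1%) passed, all with the more positive effect in WAT, against 19.9% of all probes (10.5% in that direction and 9.38% in the other, 2550 of 4834, or 2892 of 4425 with median scaling). Cry2 A_52_P248378 had an effect in WAT above that in liver by 1.15 on the log2 scale (SE 0.20, 95% confidence interval 0.73 to 1.57, adjusted p 0.000605), the printed Cry2 probe by 0.73 (SE 0.24, adjusted p 0.0361) and Per2 A_51_P282760 by 1.17 (SE 0.40, adjusted p 0.0482). The other Per2 probe, A_52_P536869, gave -0.08 (SE 0.26, 95% confidence interval -0.62 to 0.46, limma adjusted p 0.854), so the Per2 probes differed here as they did in liver. Per3 (1.62, SE 0.59, adjusted p 0.0606) and Per1 (1.25, SE 0.51, adjusted p 0.0888) had estimates of like or larger size with wider errors and did not pass. The activators did not pass, with estimates from -0.37 to 0.34 and limma adjusted p of 0.263 to 0.861. Neither did Cry1 (0.51 and 0.46). The term for A_52_P248378 passed with each of the 20 arrays left out in turn (1.04 to 1.24) and was 1.18 with slide as a fixed block (adjusted p 0.0604). The term for the printed Cry2 probe was lost without any 1 of WT liver replicates 1, 3, 4 and 5, sg/sg liver replicate 3, WT WAT replicates 1 and 2 or sg/sg WAT replicates 1 and 2 (0.61 to 0.73, adjusted p 0.0506 to 0.0694). It was also lost with normexp (1.15, limma adjusted p 0.209). With 1 array left out, the Per2 term passed only without WT liver replicate 1, sg/sg liver replicates 2 or 4, WT WAT replicate 3 or sg/sg WAT replicate 4, and otherwise lay between 0.96 and 1.23 with adjusted p of 0.0524 to 0.0908. With slide as a random block the Per2 term was 1.17 and did not pass (limma adjusted p 0.0526). Per1 passed without sg/sg liver replicate 2 (1.60, adjusted p 0.0119) or sg/sg WAT replicate 4 (1.44, adjusted p 0.0451). Per3 passed without sg/sg liver replicates 2 (1.89, adjusted p 0.0266) or 4 (1.87, adjusted p 0.0313), WT WAT replicate 3 (1.85, adjusted p 0.0351) or sg/sg WAT replicate 4 (1.95, adjusted p 0.0143).

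**Figure D3:**
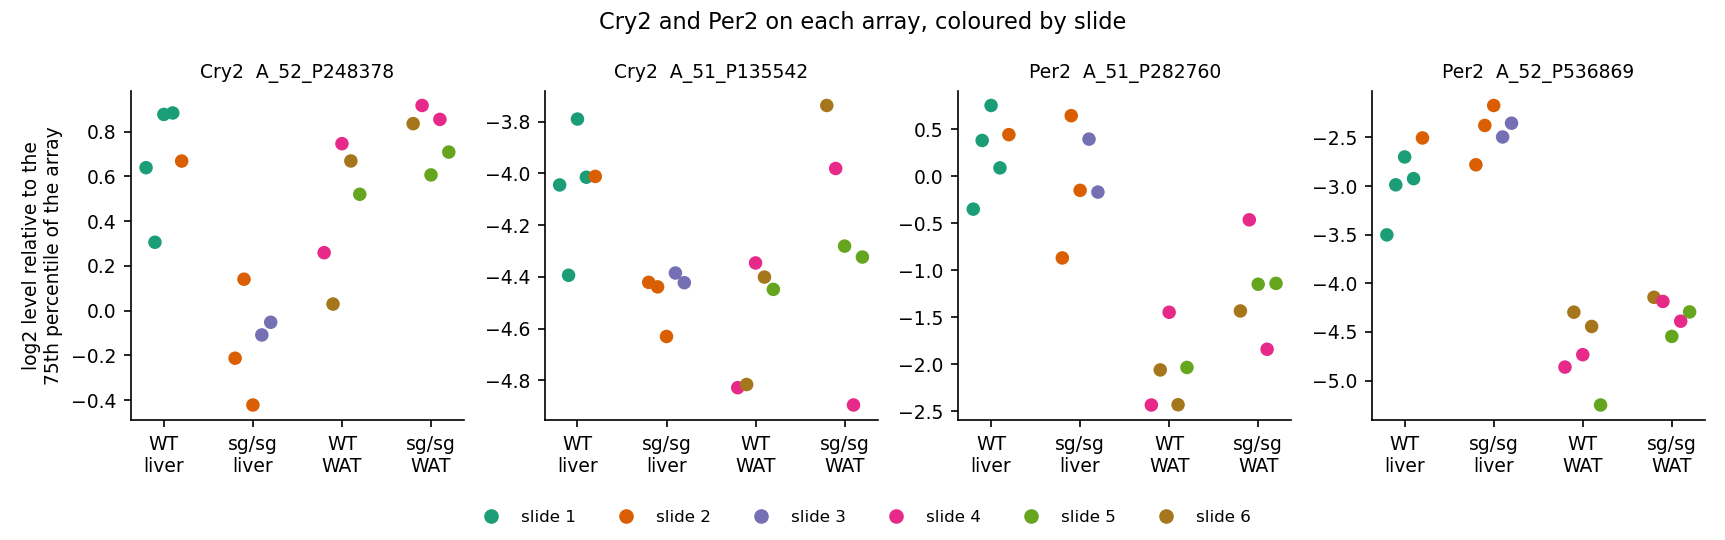
Levels of both Cry2 and both Per2 probes on every array (vertical axis, log2 relative to the 75th percentile of the array, scaled per probe), by group and coloured by slide. WT and sg/sg liver share slide 2 alone, and the WT array of that slide lies above its 3 sg/sg arrays for both Cry2 probes. The Per2 probes order the liver groups differently (mean difference -0.29 and 0.49).

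Between the tissues of WT mice the periods stood apart. Per2 was 5.08-fold and 3.47-fold lower in WAT than in liver by its 2 probes, Per3 was 4.68-fold lower and Per1 1.60-fold lower. Cry1 was 2.52-fold lower by A_51_P302204. Its other probe, A_52_P420500, differed by -0.47 (SE 0.21, limma adjusted p 0.0630) and did not pass, although it did with normexp (-0.94), quantile normalization (-0.60), median scaling (-0.64), a filter for probes well above background on every array, or without liver replicate 1 or WAT replicate 4 (both -0.55, adjusted p 0.0427 and 0.0430). Cry2 was 1.43-fold lower by the printed probe, while its other probe differed by -0.23 (limma adjusted p 0.221). Clock was higher in WAT by 3 probes (0.49, 0.82 and 1.53 on the log2 scale) and lower by A_52_P279391 (-0.45), and Arntl, higher by 0.87, did not pass (SE 0.45, limma adjusted p 0.104). It passed without liver replicate 1 (1.14, limma adjusted p 0.0346) or WAT replicate 3 (1.19, adjusted p 0.0204). With the replicate number as a block Arntl passed too (0.87, SE 0.14, limma adjusted p 0.00179), as did Cry2 A_52_P248378 (-0.23, adjusted p 0.0419). Npas2 was well above background on all WT WAT arrays and on no WT liver array, so it entered the fit through WAT alone, and neither a call nor a fold is given for it. Of the 13 probes measured in both tissues 10 passed (76.9%), 3 higher and 7 lower in WAT. Of all 26554 probes measured in both, 80% passed (32.7% higher and 47.3% lower), against 76.3% of all probes tested (34.9% higher and 41.4% lower), so a share of this size was the rule on the array. The groups did not overlap for 6 of the 14 and for 65.7% of all probes. Each slide held 1 tissue, so tissue and slide cannot be told apart.

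Most of the tissue differences that passed were firm against the choice of arrays. Those of Per2, Per3, Cry1 A_51_P302204, the printed Cry2 probe, Clock A_52_P334670 and Clock A_52_P334677 passed with each of the 10 WT arrays left out in turn. The other 3 calls did not. Per1 (-0.68, limma adjusted p 0.0417) was lost without liver replicates 1, 2 or 3 or WAT replicates 1, 4 or 5 (-0.53 to -0.65), and with slide as a random block (-0.67). Clock A_52_P161365 was lost without liver replicates 2, 3 or 5 or WAT replicates 2, 3, 4 or 5 (0.40 to 0.52), and A_52_P279391 without liver replicates 3 or 4 or WAT replicates 1, 2 or 3 (-0.42 to -0.46). With the normexp background correction, under which the median of all probes was -0.60, the sign of Clock A_52_P161365 (-0.56) turned.

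Within groups, arrays with lower Arntl tended to have higher periods, but no pair of Arntl with a period passed the test given here after adjustment. The only pair of genes that passed was Per2 with Per3 in liver. Deviations of each array from its group mean were correlated for every pair of genes by the brightest probe, over the 10 arrays of a tissue, with exact permutation within the groups. Each r was also taken without the 2 arrays farthest from the median of the first gene named. Arntl had negative values against the periods: in liver its Pearson r was -0.46 with Per1, -0.83 with Per2 and -0.63 with Per3, and without 2 arrays -0.65, -0.77 and -0.74. In WAT it was -0.61, -0.71 and -0.56, and without 2 arrays -0.63, -0.58 and -0.15, so the value with Per3 in WAT rests on those arrays. Among the periods in liver, r was 0.83 for Per2 with Per3 and 0.71 without 2 arrays. For Per1 with Per2 and Per1 with Per3 it was 0.59 and 0.46 in liver, but 0.013 and -0.24 without 2 arrays, so these values rest on those arrays too. In WAT r was 0.91, 0.79 and 0.83 for Per1 with Per2, Per1 with Per3 and Per2 with Per3, and 0.78, 0.50 and 0.67 without 2 arrays. Clock was negative against all 3 periods in both tissues, from -0.28 to -0.54 in liver and from -0.68 to -0.82 in WAT, and without 2 arrays from -0.30 to -0.44 and from -0.29 to -0.56.

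After Benjamini-Hochberg adjustment over the 21 pairs in liver, 1 pair passed by Pearson's r, Per2 with Per3 (exact permutation p 0.00215, adjusted p 0.0452), and 4 pairs had an unadjusted p under 0.05. Its Spearman's rho was 0.82 (exact permutation p 0.00521, adjusted p 0.109). Arntl with Per2 came next (exact permutation p 0.00486, adjusted p 0.0510). Its rho was -0.79 (exact permutation p 0.0142, adjusted p 0.150), and r was -0.86 within WT and -0.87 within sg/sg mice. None of the 28 pairs in WAT passed by exact permutation after adjustment, and 6 had an unadjusted p under 0.05. The strongest there was Per1 with Per2 (exact permutation p 0.00354, adjusted p 0.0622), with a rho of 0.78 (exact permutation p 0.0151, adjusted p 0.0994). A slide held 2 to 4 arrays of a tissue, too few for a value within slides.

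**Figure D4:**
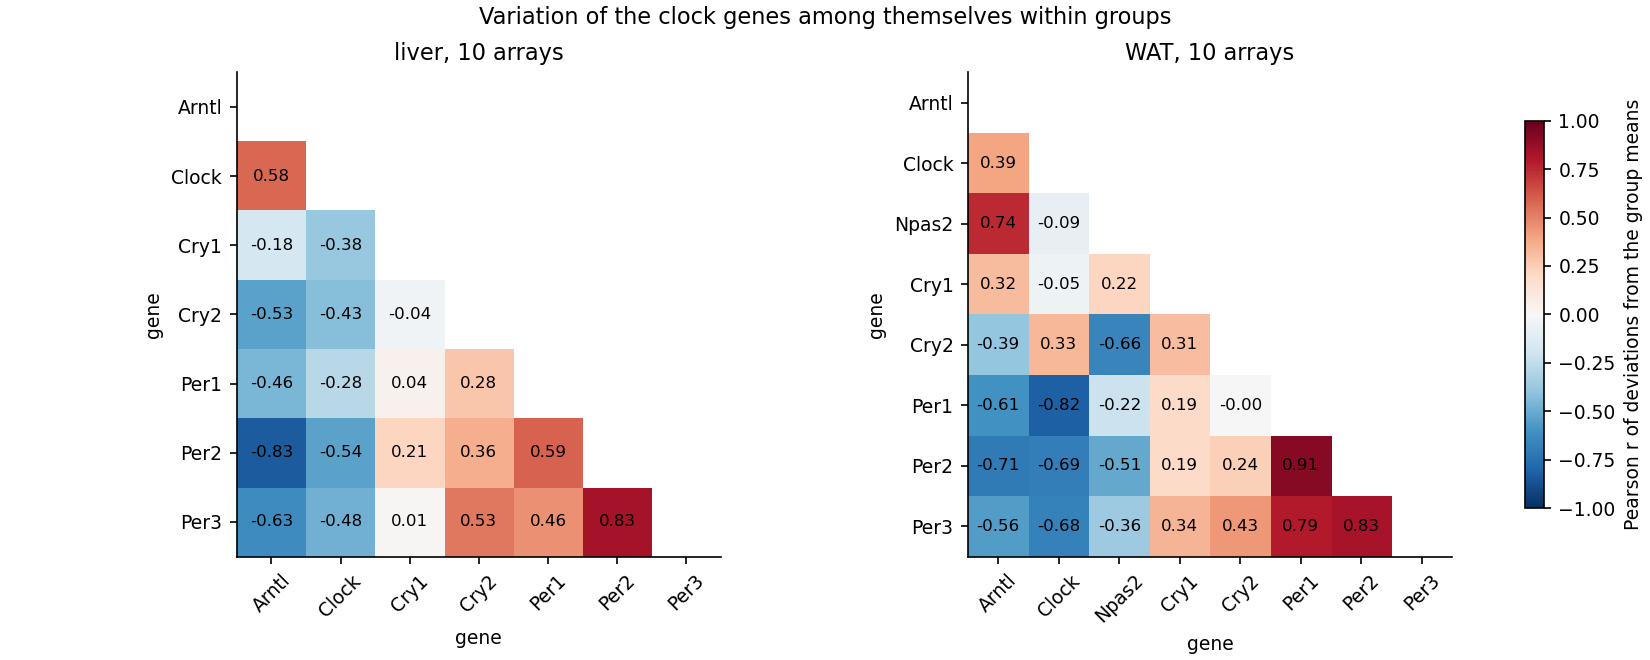
Pearson correlation of deviations from the group mean between each pair of clock genes, in liver (left, 7 genes) and WAT (right, 8 genes), over 10 arrays each. Red is positive and blue negative. The periods are positive against each other (0.46 to 0.91) and Arntl and Clock negative against them (-0.28 to -0.83), but without 2 arrays Per1 in liver had 0.013 with Per2 and -0.24 with Per3, and Arntl in WAT had -0.15 with Per3.

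Single arrays show the same opposition by the brightest probe of each gene, but these are the values behind the correlations and add no separate support. WT liver replicate 3 had the lowest Arntl of its group (-2.47) and the highest Per1 (1.55) and Per2 (0.75), while Per3 was highest on replicate 5 (-2.30). WT WAT replicate 3 likewise had the lowest Arntl (-1.70) and the highest Per1 (0.79), Per2 (-1.45) and Per3 (-4.03) of its group. In sg/sg liver, replicate 2 had the lowest Arntl (-1.54) and the highest Per1 (1.69), Per2 (0.65) and Per3 (-2.89). In sg/sg WAT, replicate 2 had the lowest Arntl (-0.44) and the highest Per1 (1.57), Per2 (-0.46) and Per3 (-3.80). The time of collection of each animal is not given in the labels, and its part in these values was not tested.

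The gene outside the clock set whose level was most like that of each member over the 10 arrays of a tissue was found by Pearson's r, as a description. In liver, among 15079 genes, these were Cibar2 for Arntl (0.95), Dap3 for Cry2 (0.97), Plet1 for Cry1 (0.94), Esm1 for Per1 (0.90) and Fgfbp3 for Per3 (0.94), with the unnamed transcripts 5330438D12Rik for Clock (0.91) and A730063M14Rik for Per2 (0.96). In WAT, among 18673 genes, they were Olfr95 for Arntl (0.92), Selenoi for Clock (0.98), Csh1 for Npas2 (0.98), Ap1ar for Cry1 (0.95), Rcor2 for Cry2 (0.98), Snord35b for Per1 (0.93), Zubr1 for Per2 (0.95) and Phc3 for Per3 (0.92). No member had the same nearest gene in both tissues. These values are the highest of many correlations over few arrays that share genotype, slide and scaling.

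Around the core set, 25 of 26 other listed clock genes were tested, each by its brightest probe. In liver 24 were measured in both genotypes, of which 4 fell and none rose. Of all genes so measured 15.2% were called by their brightest probe, 6.51% as lower and 8.69% as higher (15.3% of all genes tested). The 4 were Rora itself, Nr1d2 (REV-ERB beta, -0.52), the D-box factor Dbp (-1.70) and the repressor Ciart (-1.95). Rora is the mutated gene, so its fall in either tissue is part of the genotype and no result about the other clock genes. The repressor Bhlhe41 was well above background on all WT liver arrays and on no sg/sg liver array. It entered the fit through WT alone, so it is left out of these counts and given as a bound, at least 1.78-fold lower in sg/sg than in WT liver. In WAT 6 rose, among them Bhlhe40 (1.62), Bhlhe41 (0.93) and Nfil3, a D-box repressor (0.75), and 3 fell, Rora, Nr1d1 (REV-ERB alpha, -1.09) and Timeless (-0.65). Of all genes 23% were called there, and of those measured in both genotypes 13.8% as higher and 9.08% as lower. Of the kinases, ubiquitin ligase subunits and deubiquitinase that act on clock proteins, 0 of 8 passed limma's test in liver, where 2 had an unadjusted p under 0.05, and 1 passed in WAT, Csnk1e (0.73). The genotype effect was more positive in WAT than in liver for 8 of the 24 measured in every group, Bhlhe40 among them. Of all genes so measured 20.7% were called, 11.1% as more positive in WAT and 9.64% as more negative, and of all tested 20.8%. Between WT tissues 17 of the 25 were lower in WAT and 3 higher (80% called). Of all genes measured in both tissues 81.1% were called, 48.6% as lower and 32.6% as higher, and of all tested 77.1%. The median interaction of the 24 was 0.57, beside 0.04 over all genes so measured and 0.46 over the 13 core probes.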

How the data were processed

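Total RNA from 20 samples was measured on Agilent arrays with 1 colour. The deposited intensities came from Agilent Feature Extraction 9.5, per the file headers, which subtracted the background and put a surrogate value in place of dim signals, so differences between dim probes depend on that fill-in too. The deposited value table held the same intensities. Arrays have no read depth, so the number of arrays limits the precision.

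Control spots were left out and outlier spots set missing (0 among the 14 probes). Levels were log2 of the processed intensity minus that of the array's 75th percentile. A tissue's fit took a probe where 4 or more of its 10 arrays showed it well above background. Groups and replicate numbers came from the sample titles. Every kept probe was a row of limma 3.58.1 (R 4.3.3, lmFit and eBayes, two-sided, Benjamini-Hochberg over all kept probes, threshold 0.05). Liver, WAT and the WT tissues were fitted apart and the interaction over all 20 arrays. The design text names 5 mice per genotype, and each genotype had 5 liver and 5 WAT arrays. The tissues may therefore share mice, but the main fits treated all arrays as independent. On simulated data 200 probes were changed: limma recovered 80% of them in the liver design, 52% in WAT, 59% in the interaction and 64.5% between tissues. The size of those changes is not given here, so the shares neither measure power nor rank the designs. Correlations were run in SciPy with exact permutation within groups. Probes are named as the files name them, and promoter windows are RefSeq's. All 14 probes were named, and the rule also named Rora, the other clock genes and the nearest genes. One listed gene is counted in the lists but not reported here by name. No gene of the hepatocyte and T cell lists passed limma's test. Of the adipocyte list 2 of 6 were higher and 1 lower in WAT and 1 of 3 lower in liver. The marker lists for endothelium (1 of 5 higher in liver), mesothelium (1 of 4 higher in liver), B cells (1 of 3 higher in liver), muscle (1 of 1 higher in liver) and pancreas (1 of 2 higher in liver) were also checked. Alternatives covered background correction, normalization, filters, probes per gene, the value table, slides, the replicate number and single arrays. The members and lists were chosen with earlier results of these data known.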

Additional observations from a re-analysis of the deposited data

Results flagged for a closer look

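The genotype effect differed between WAT and liver by limma's interaction test for 3 probes of the core clock genes. The difference, WAT minus liver, was 1.15 on the log2 scale for Cry2 A_52_P248378, 0.73 for Cry2 A_51_P135542 and 1.17 for Per2 A_51_P282760, while the other Per2 probe gave -0.08.

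A single array stood apart from the other 4 of its group, by Dixon's criterion at 95%, in 5 of the 54 combinations of probe and group examined. Chance alone gives such an array in about 1 of 20 groups. In sg/sg WAT, replicate 4 was the highest for 3 probes: Clock A_52_P334670 (2.37), Clock A_52_P334677 (0.26) and Cry1 A_52_P420500 (-3.74). Replicate 1 of the same group was the highest for Npas2 (-5.45). In sg/sg liver, replicate 3 was the lowest for Cry2 A_51_P135542 (-4.63).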

How the results depend on the processing

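Limits: 5 arrays per group, dim probes (Npas2, Cry1, Cry2 A_51_P135542, Clock A_52_P161365 and A_52_P279391) near background in liver, and slides that nearly coincide with genotype in liver. The count of clock probes past limma's threshold moved as follows. In liver it was 3, and 1 with no filter on dim probes or with 1 probe per gene, 0 with slide as a fixed block and 0 within slide 2. Leaving out 1 array gave 1 to 3, with 1 without WT replicates 3 or 4 or sg/sg replicates 1, 3 or 5. In WAT it was 2, and 1 with normexp, quantile normalization, no filter, 1 probe per gene or a fit to all 20 arrays, and 0 within slides 4, 5 and 6. Leaving out 1 array gave 1 to 4, with 4 without sg/sg replicate 4 and 1 without WT replicates 1, 2, 4 or 5 or sg/sg replicates 1, 2, 3 or 5. The interaction count was 3, and 1 with no filter. With slide as a fixed block it was 0, where 776 probes of the whole array passed and 4202 had an unadjusted p under 0.05. Leaving out 1 array gave 1 to 5, with 5 without sg/sg liver replicate 2 or sg/sg WAT replicate 4, and 1 without WT liver replicates 3, 4 or 5, sg/sg liver replicate 3, WT WAT replicates 1 or 2 or sg/sg WAT replicates 1 or 2. Between WT tissues it was 11, Npas2 with its liver bound included, and 6 with 1 probe per gene, which leaves 8 probes. Leaving out 1 array gave 7 to 12, with 7 without WT liver replicate 3. The other causes were not tested.

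Over all probes, same-numbered WT and sg/sg arrays correlated from -0.11 to 0.17 in liver and from -0.14 to 0.087 in WAT. Replicate numbers thus did not pair the genotypes within a tissue. This check cannot show whether liver and WAT arrays of the same number share a mouse. With the replicate block the counts were 2, 2, 3 and 12 in the order above. In liver Cry2 A_51_P135542 (limma adjusted p 0.0906) and Clock A_52_P334677 (0.0794) no longer passed and Per2 A_52_P536869 did (0.0487). In the interaction Cry2 A_51_P135542 was lost (0.0605) and Per1 passed (0.0287). There the block joined WT and sg/sg arrays of the same number, so it did not pair arrays by mouse. Between WT tissues Arntl (0.87, SE 0.14, adjusted p 0.00179) and Cry2 A_52_P248378 (-0.23, adjusted p 0.0419) passed and Clock A_52_P161365 did not (0.0657). In liver the block left 1663 of 24675 probes of the whole array called in place of 3601.

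Signs turned under 18 alternatives other than leaving out an array, and under 20 that left one out. Only 2 of these results had passed, both between WT tissues with normexp: Clock A_52_P161365 (-0.56) and Npas2 (-0.99), a bound in liver. In WAT the signs that turned were Cry1 A_52_P420500 (0.84 with normexp, 0.0037 with median scaling, 0.0255 with slide as a fixed block, 0.51 within slide 4), Per3 (-0.0353 within slide 4), and within slide 5 Cry1 A_51_P302204 (-0.50), Arntl (-0.18) and Clock A_52_P334677 (-0.0543). In the interaction they were Clock A_52_P161365 (0.76 with normexp, 0.0171 with median scaling), Clock A_52_P334670 (-0.0935 with normexp, -0.36 with slide as a fixed block), Clock A_52_P279391 (-0.12 with slide as a fixed block) and Per2 A_52_P536869 (0.67 with normexp, 0.0269 with median scaling, 0.46 with slide as a fixed block). Leaving out 1 array turned signs of results that had not passed: Clock A_52_P334670 in liver (-0.0059 to 0.22), and in WAT Arntl (-0.074 to 0.39), Npas2 (-0.064 to 0.37), Cry1 A_51_P302204 (-0.093 to 0.17) and Cry1 A_52_P420500 (-0.21 to 0.085). In the interaction it turned Clock A_52_P161365 (-0.26 to 0.035), Clock A_52_P334670 (-0.024 to 0.21) and Per2 A_52_P536869 (-0.22 to 0.062). Median scaling moved the median of all probes to 0.14 in the interaction and -0.30 between WT tissues, and normexp to 0.23 and -0.60.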

Other observations

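Liver and WAT arrays with the same replicate number deviated alike for some clock genes. This comparison was chosen after the values were seen, and the labels do not say whether such arrays share a mouse. Over the 10 pairs, with deviations from the group mean and exact permutation within genotype, Pearson's r was 0.86 for Cry2 (exact permutation p 0.00194, adjusted over 7 genes 0.00681) and 0.82 for Arntl (exact permutation p 0.000833, adjusted 0.00583). Spearman's rho was 0.82 for Cry2 (exact permutation p 0.00583) and 0.77 for Arntl (exact permutation p 0.0103), both 0.0360 after adjustment. Without the 2 pairs farthest from the median in liver, r was 0.65 for Cry2 and 0.61 for Arntl. For Per1, r was 0.74 (exact permutation p 0.0383, adjusted 0.0894) and rho 0.68 (exact permutation p 0.0437, adjusted 0.102). Per2 (0.54), Clock (0.23), Per3 (-0.07) and Cry1 (-0.30) had weaker values that did not pass. Over all 24344 probes kept in both tissues, same-numbered arrays correlated only from -0.045 to 0.17 in WT and from -0.099 to 0.10 in sg/sg mice. Over the 13 clock probes the WT pairs correlated from 0.089 to 0.68 and the sg/sg pairs from -0.68 to 0.78. Of these, 4 of the 5 WT liver arrays correlated best with the WAT array of their own number, against 1 of 5 in sg/sg mice.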
